A study of Mus musculus with 18 samples.

Results

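Enzymes of xenobiotic metabolism oxidize, reduce and conjugate foreign and endogenous small molecules. Their genes were taken from the RefSeq protein-coding genes of the mouse genome as all symbols that begin with Cyp1, Cyp2, Cyp3 or Cyp4 and a letter, with Aldh or with Gst, and Por. Cyp2f2, Cyp4b1 and Aldh1a1 were left out. These 3 stand in the list of airway secretory markers used below, and each held a region found under the inhibitor alone in the sorted population CD24low. Aldh1a1 also held such a region in CD24neg and in CD24high. Cyp2f2 and Cyp4b1 held a region found under vehicle alone in CD24high. The rule reads names and no measured value, and was set with earlier results of these data known. It gave 122 of 21887 protein-coding genes: 78 cytochrome P450 genes, Por, 20 aldehyde dehydrogenase genes and 23 glutathione S-transferase genes.

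Cytochromes P450 insert oxygen into lipophilic compounds, with electrons passed on from NADPH by the reductase that Por encodes. Aldehyde dehydrogenases oxidize the reactive aldehydes that arise on the way, and glutathione S-transferases couple electrophiles to glutathione so that they can be exported. In the mouse lung these activities are best known from secretory club cells of the airway, where P450 oxidation turns inhaled compounds into reactive products. Several families, among them Cyp2c, Cyp2d, Cyp3a, Cyp4a and Gstm, lie in tandem arrays of closely related copies.

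Open chromatin was profiled by ATAC-seq, which tags accessible DNA with a transposase, in lung epithelial cells of adult c57/bl6 mice aged 6 to 12 weeks. The cells were CD31/45-, Epcam+ and Sca-1+ and were split by CD24 level into a CD24-negative (CD24neg), a CD24low and a CD24high population, with 10000 cells per library. Of the mice, 3 received an inhibitor of the histone H3 lysine 9 methyltransferase G9a (G9ai) and 3 received vehicle, which gives 18 samples in 6 groups. The sources used here do not give the compound, its dose or the duration. Peak lists came from 10 libraries. In each population these included G9ai replicates 2 and 3. Vehicle was represented by replicates 2 and 3 in CD24low and by replicate 3 in CD24neg and CD24high, and 8 samples were not analysed here.

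Each list held 2552 to 12985 peaks after repeated lines were dropped, and 5 to 32 of them lay in an enzyme gene. A gene was taken with 1 kb on either side, and a region was called G9ai-only or vehicle-only (together, arm-only) when it had a peak in each list of that arm and in none of the other arm within a population. The lists hold nearly only peaks that replicates share and the other arm lacks, as in CD24low, where G9ai lists of 7379 and 7361 peaks gave 7172 G9ai-only regions, so replicates overlap by construction and the spread between them understates the difference between mice. A gene without a region can be closed in both arms or open in both. CD24neg and CD24high had 1 vehicle library and no replicate check on that side, and an exact permutation test of 2 against 2 libraries in CD24low could not go below p = 0.333. The values below are therefore descriptions without a test. Peak scores are those of the authors, on a scale that no source used here states, and they rank peaks within a list only. Read depth is unknown.

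Of the 122 enzyme genes, 41 (33.6%) held an arm-only region in at least 1 population, beside 43.7% of all genes and 45.2% of all genes weighted to the same gene lengths. A further 2 genes, Cyp2j9 and Cyp4f40, held only regions listed in both arms, and 79 held no listed region. The 41 genes carried 85 arm-only regions, counted per population, of which 29 were G9ai-only and 56 vehicle-only. Of these regions 71 lay inside a gene, 3 across a gene end and 11 in the 1 kb flank. Of the 69 regions in genes with an annotated start, 7 (10.1%) overlapped a promoter window of 250 bases before to 50 after the start, against 11.4% over all genes. The median distance to the nearest start was 8.67 kb, against 12.7 kb over all genes. The distances are not from genes of like length. Enzyme genes with a region had a median span of 17.4 kb, and all genes with one 33.1 kb.

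The promoters with such a region are the places where a listed peak can be tied most directly to an enzyme gene. The 250 bases upstream of the annotated start of 6 of them follow, 5′ to 3′ in the direction of transcription, from RefSeq (GRCm38.p6, the build of mm10). Capitals mark the bases inside the listed region. Cyp2b10, the P450 known for its induction by phenobarbital through the receptor Nr1i3, was G9ai-only in CD24neg (chr7:25897408-25897657, plus strand). Cyp4f39, an omega-hydroxylase of very long fatty acids, was G9ai-only in CD24low (chr17:32452473-32452722, plus strand). Gstt1, a theta-class transferase, was G9ai-only in CD24low (chr10:75797732-75797981, minus strand).
Cyp2b10: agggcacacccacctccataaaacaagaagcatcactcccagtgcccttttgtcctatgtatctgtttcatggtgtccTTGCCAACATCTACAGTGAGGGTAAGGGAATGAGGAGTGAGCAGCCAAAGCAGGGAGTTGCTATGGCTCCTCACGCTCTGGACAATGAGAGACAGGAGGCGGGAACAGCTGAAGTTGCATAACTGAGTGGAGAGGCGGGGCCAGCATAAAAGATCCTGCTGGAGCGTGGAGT
Cyp4f39: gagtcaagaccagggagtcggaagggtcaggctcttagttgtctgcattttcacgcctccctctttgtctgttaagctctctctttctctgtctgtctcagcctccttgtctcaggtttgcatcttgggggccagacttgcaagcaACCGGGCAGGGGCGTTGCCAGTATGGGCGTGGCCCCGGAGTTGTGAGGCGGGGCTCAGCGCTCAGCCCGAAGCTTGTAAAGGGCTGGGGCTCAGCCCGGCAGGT
Gstt1: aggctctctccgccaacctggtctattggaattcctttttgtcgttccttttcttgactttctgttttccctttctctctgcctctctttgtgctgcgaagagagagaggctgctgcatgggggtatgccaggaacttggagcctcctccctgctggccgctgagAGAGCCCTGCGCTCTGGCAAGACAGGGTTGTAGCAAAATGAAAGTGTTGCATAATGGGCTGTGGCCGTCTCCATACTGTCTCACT
The next 3 were vehicle-only in CD24high, where 1 vehicle library was listed. They belong to Cyp3a13, a P450 of the drug-oxidizing Cyp3a subfamily (chr5:137921620-137921869, minus strand), to Gsta3, an alpha-class transferase known for detoxifying aflatoxin epoxide (chr1:21240335-21240584, plus strand), and to Gstp3, a pi-class transferase (chr19:4059448-4059697, minus strand).
Cyp3a13: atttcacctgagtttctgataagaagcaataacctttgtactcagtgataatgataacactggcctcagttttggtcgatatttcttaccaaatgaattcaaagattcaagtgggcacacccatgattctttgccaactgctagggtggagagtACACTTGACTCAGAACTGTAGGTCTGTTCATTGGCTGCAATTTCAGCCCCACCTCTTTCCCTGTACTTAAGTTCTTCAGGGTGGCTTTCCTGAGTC
Gsta3: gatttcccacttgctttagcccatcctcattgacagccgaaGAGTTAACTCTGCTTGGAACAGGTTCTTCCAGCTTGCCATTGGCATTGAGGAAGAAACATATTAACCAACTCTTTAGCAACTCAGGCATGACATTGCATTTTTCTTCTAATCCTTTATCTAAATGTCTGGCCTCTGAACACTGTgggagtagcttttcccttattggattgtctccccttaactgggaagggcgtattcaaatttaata
Gstp3: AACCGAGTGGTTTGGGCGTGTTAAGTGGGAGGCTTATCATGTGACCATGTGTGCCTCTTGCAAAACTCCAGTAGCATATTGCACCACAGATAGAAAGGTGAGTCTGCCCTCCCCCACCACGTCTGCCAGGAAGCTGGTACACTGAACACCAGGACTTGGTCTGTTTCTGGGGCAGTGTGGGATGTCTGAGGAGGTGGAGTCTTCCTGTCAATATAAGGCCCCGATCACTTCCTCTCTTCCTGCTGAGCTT

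The listed region covered all 250 upstream bases of Gstp3, 172 of Cyp2b10, 144 of Gsta3, 104 of Cyp4f39, 96 of Cyp3a13 and 85 of Gstt1. The windows were searched whole, on both strands, for 6 motifs, and positions count from the annotated start, which is 0. The letters GCGTG, the core bound by Ahr and Arnt, began at -9 in Cyp2b10, with a match on the opposite strand at -101, at -78 in Cyp4f39 and at -235 in Gstp3, all inside the region, and a further opposite-strand match at -199 in Cyp4f39 lay outside it. GCGTG occurs in 38.5% of all 21263 windows and in 26.5% of the 117 windows of enzyme genes. The antioxidant response core TGACNNNGC stood at -121 in Gsta3 and, on the opposite strand and outside the region, at 24 in Cyp4f39, and 13% of all windows and 9.4% of enzyme windows hold it. The AP-1 letters TGANTCA matched Cyp3a13 at -91 and at -6, where the match runs into the start, and 6.99% of all windows and 6.84% of enzyme windows hold them. TTGCNNAA, a C/EBP-like site, was found at -58 in Cyp2b10, at -39 in Gstt1, at -193 in Gstp3 and on the opposite strand at -137 in Gsta3, with shares of 10.2% of all windows and 21.4% of enzyme windows. The forkhead core TGTTTAC, in 3.01% of all windows and 8.55% of enzyme windows, and the nuclear receptor letters AGGTCA, in 14.7% and 20.5%, did not match any of the 6 printed promoters. A match describes letters, not a bound site.

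In these promoters the library values were as follows. Cyp2b10 had peak scores of 91 and 166 in the G9ai libraries of CD24neg and no listed peak in the vehicle library. Cyp4f39 had 66 and 91 in the G9ai libraries of CD24low and none in either vehicle library. Gstt1 had 44 and 81 there, the first of them among the lowest scores of its list. The Gstt1 promoter was also listed in all 3 CD24high libraries, with 75 and 101 under G9ai and 153 under vehicle, so it was an arm-only site in CD24low alone. Gstp3 scored 291 in the CD24high vehicle library, Cyp3a13 scored 185 and Gsta3 scored 65, with no listed peak under G9ai. A seventh promoter, that of Cyp2t4, was touched by a vehicle-only region in CD24high with a score of 97, and the Cyp2j9 promoter was listed in every CD24high library (119 and 107 under G9ai, 272 under vehicle).

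By population and arm, the enzyme genes with a region were most numerous among the vehicle-only genes of CD24high and fewest among the G9ai-only genes of CD24neg. In CD24neg, 5 enzyme genes (4.1%) held a G9ai-only region, beside 10.6% of all genes, and 14 (11.5%) a vehicle-only region, beside 18.9%. In CD24low, 15 (12.3%) held a G9ai-only region, beside 15.9%, and 6 (4.92%) a vehicle-only region, beside 7.44%. In CD24high, 7 (5.74%) held a G9ai-only region, beside 8.01%, and 23 (18.9%) a vehicle-only region, beside 25.0%. All 6 shares were below those of all genes, and they were also below the shares weighted to the enzyme genes' lengths, which ran from 6.93% to 24.1%. The direction turned under other settings, mostly in CD24high. With lists of equal length the enzyme genes' share there was 7.38% for G9ai-only, beside 6.93% of all genes, and 9.84% for vehicle-only, beside 7.08%. This setting keeps the highest-scoring 2552 peaks of each list, and the CD24high vehicle list held 12985. A site listed in both arms can thus lose its vehicle peak and count as G9ai-only, so these shares are not of the same calls. For vehicle-only regions the enzyme genes' share in CD24high was also above that of all genes with windows around the gene ends (9.84% beside 9.04%) and with promoter windows (3.28% beside 2.68%). With the higher-scoring 50% of peaks it was above in CD24high G9ai (3.28% beside 2.7%) and in CD24low vehicle (3.28% beside 2.42%).

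**Figure D1:**
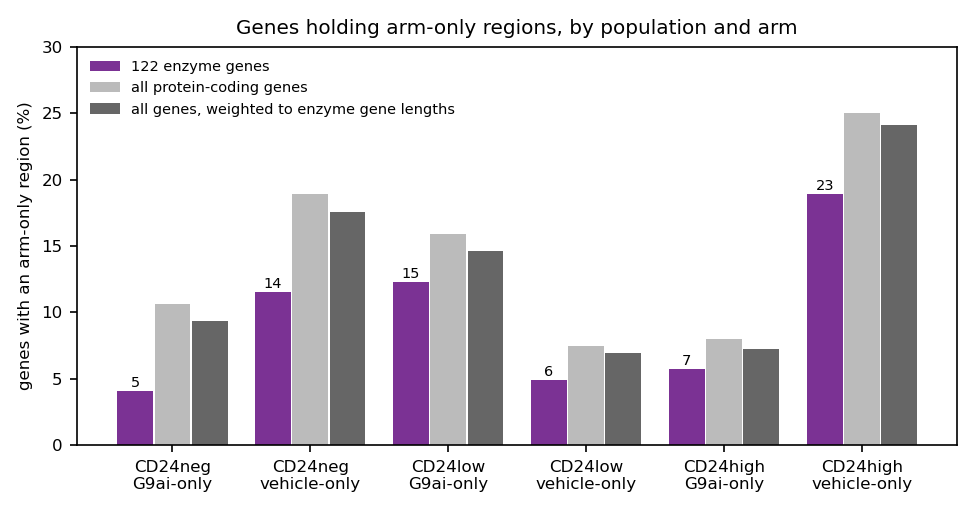
Share of genes with an arm-only region (y axis, %) by population and arm (x axis), for the 122 enzyme genes, for all protein-coding genes and for all genes weighted to the enzyme gene lengths; numbers over the bars count enzyme genes. With full lists and 1 kb flanks, enzyme genes lay below both shares of all genes in each of the 6 groups of bars. In CD24high the order against all genes turned with lists of equal length, a setting that drops most peaks of the vehicle list there.

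In each population the arm with more arm-only regions was also the arm with more enzyme genes. Over the same 6 groups there were 4015 and 8783 arm-only regions in CD24neg (G9ai and vehicle), 7172 and 2500 in CD24low, and 2675 and 12880 in CD24high. Enzyme genes took 0.19% to 0.426% of the gene-linked regions in each. With every list shortened by score to the 2552 peaks of the shortest, the CD24low balance turned from 15 G9ai-only and 6 vehicle-only enzyme genes to 1 and 6. The shares of all genes turned too, from 15.9% and 7.44% to 3.57% and 7.44%. The CD24low vehicle lists (2558 and 2552 peaks) were hardly shortened, while the G9ai lists came down from 7379 and 7361. A G9ai-only region then needs a peak kept in both shortened lists. Fewer G9ai-only calls thus follow from the setting, and the turn does not show what set the balance. In CD24high the enzyme genes went from 7 and 23 to 9 and 12, while all genes evened out at 6.93% and 7.08%. In CD24neg they went from 5 and 14 to 3 and 6, and all genes to 5.12% and 6.81%. Counts of marker genes were taken from the full lists alone and were not repeated with shortened lists. Marker genes of airway secretory cells leaned to the same arm as the full-list CD24low count of enzyme genes. In CD24low, 7 of 8 held a G9ai-only region, and 0 of 8 a vehicle-only region. Of these 7, Cyp2f2, Cyp4b1 and Aldh1a1 are the enzyme genes left out by the rule, and Scgb1a1, Scgb3a1, Scgb3a2 and Pigr are not enzymes of these families. In CD24high 1 of 8 was G9ai-only and 5 of 8 vehicle-only, and in CD24neg 1 and 0. Of 8 alveolar type 2 markers, 1 was G9ai-only and 5 vehicle-only in CD24neg, 2 and 1 in CD24low, and 2 and 2 in CD24high. Of 8 multiciliated markers, 2 and 2 were so in CD24neg, 3 and 0 in CD24low, and 3 and 6 in CD24high. Endothelial markers gave 2 and 3, 1 and 1, and 0 and 3 of 6, and mesenchymal markers 0 and 1, 1 and 0, and 0 and 3 of 6. Of all genes, 10.6% and 18.9% were so in CD24neg, 15.9% and 7.44% in CD24low, and 8.01% and 25.0% in CD24high. In any population, 100% of secretory, 87.5% of alveolar type 2 and 100% of multiciliated markers held a region. Length-weighted shares of all genes for these lists were 40.6%, 48.2% and 49.8%. The part of cell makeup in the enzyme genes' counts was not tested. In bulk libraries a change in the number of cells of a type and a change of accessibility per cell cannot be told apart.

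The families differed in the share of their genes that held a region. None of the 3 Cyp1 genes, 8 of 47 Cyp2 genes (17%), 1 of 9 Cyp3 genes (11.1%) and 8 of 19 Cyp4 genes (42.1%) held an arm-only region in any population. Genes of the same lengths over the genome held one in 34.6%, 46.5%, 52.8% and 45.2% of cases. Of the aldehyde dehydrogenase genes 10 of 20 (50%) held one, where the length-weighted share was 49.5%. Of the glutathione S-transferase genes 13 of 23 (56.5%) did, where it was 36.1%.

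**Figure D2:**
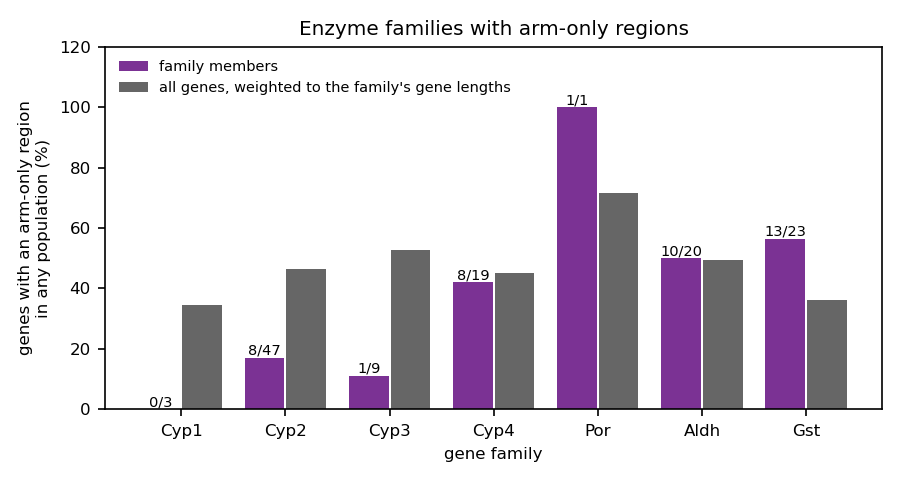
Share of each family with an arm-only region in any population (y axis, %) beside the share of all protein-coding genes weighted to the lengths of that family's genes; fractions over the bars give genes with a region and genes in the family. Cyp2 (8 of 47) and Cyp3 (1 of 9) lay below the length-weighted share, Aldh (10 of 20) was level with it and Gst (13 of 23) lay above it.

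Genes without a region were concentrated in a few tandem arrays. In 9 arrays of at least 5 enzyme genes, with gaps of at most 500 kb, 20 of 80 genes (25%) held an arm-only region, against 21 of 42 (50%) elsewhere. The Cyp3a array on chromosome 5 (chr5:145345149-146114978, 770 kb, 8 genes) and the Cyp2j array on chromosome 4 (chr4:96042660-96664171, 622 kb, 7 genes) held no arm-only region at all, where the genome averaged 14.1 per Mb. The Cyp4a and Cyp4x1 array on chromosome 4 held 2 regions in 516 kb and none in its 9 genes. All 15 Cyp2c genes were without a region. The Cyp2c array on chromosome 19, which takes in Aldh18a1 and not the more distant Cyp2c23, held 16 regions in 1580 kb. Of these, 2 belonged to Aldh18a1. Enzymes of these arrays are best known from liver, kidney and gut, in which they oxidize drugs, steroids and fatty acids.

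Other arrays lay in intervals dense in regions, counted over the whole interval and not only in enzyme genes. The Cyp4f array on chromosome 17 held 17 regions in 495 kb (34.2 per Mb), an interval with 12 protein-coding genes. Of its 8 enzyme genes, 6 had a region. The Gstt array on chromosome 10 held 5 regions in 63.3 kb with 3 of 4 genes. The Aldh3b and Gstp array on chromosome 19 held 9 in 146 kb, also with 12 protein-coding genes, and 3 of its 6 enzyme genes had one. Reads from near-identical copies cannot always be placed on 1 gene, so single genes of the Cyp2c, Cyp2d, Cyp3a, Cyp4a, Gsta, Gstm and Gstt groups are uncertain. No source used here states how such reads were treated, and their part in these counts was not tested.

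Gene length entered the comparison in an uneven way. Of the 15 enzyme genes above 44.3 kb, the upper quartile of gene length, 4 (26.7%) held a region, against 72.4% of all genes that long. Of the 53 genes of 17.2 to 44.3 kb, the largest class, 18 (34%) did, against 50.2%. Of the 36 genes of 5.67 to 17.2 kb, 15 (41.7%) did, against 36.3%. Among the 18 genes up to 5.67 kb it was 4 (22.2%), against 16%. The 15 long genes include Cyp2c38, Cyp2c39, Cyp2c40, Cyp2c66 and Cyp2c68 and Cyp2j6, Cyp2j8 and Cyp2j11, none of which held a region.

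Por, the electron donor of all microsomal P450 enzymes, carried more regions than any other enzyme gene. Its span of 65.3 kb (chr5:135670040-135735326, plus strand, annotated start at 135689145) held 11 arm-only regions, counted per population, or 163 per Mb. The Cyp2w1 locus was denser, at 222 per Mb, and the Gstz1 locus had 153 per Mb. Of all genes weighted to the length of Por, 71.5% held a region. Por was 1 of 2 enzyme genes with regions in all 3 populations, with Cyp2b19 (1.64% of enzyme genes, beside 8.15% of all genes). Its 11 regions fell on 6 sites, of which 4 recurred between populations. The site 21.9 kb downstream of the start was vehicle-only throughout: its scores were 152 in CD24neg vehicle, 79 and 75 in CD24low vehicle and 196 in CD24high vehicle, with no listed peak in any of the 6 G9ai libraries. The site at -16.5 kb was G9ai-only in CD24neg (68 and 69) and in CD24low (92 and 127) and was not listed in CD24high.

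The other recurring Por sites changed arm between populations. The site near -6 kb had 66 in CD24neg vehicle and 110 and 99 in CD24high G9ai. The site near 13.6 kb had 71 and 50 in CD24low G9ai and 80 in CD24high vehicle. A site at 8.66 kb was listed in CD24neg vehicle alone (97), and one at 36.5 kb in both CD24high G9ai libraries alone (74 and 60). The only start of Por in the table had no listed peak over it, and 3 sites inside the gene span were vehicle-only in CD24neg against 1 G9ai-only.

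**Figure D3:**
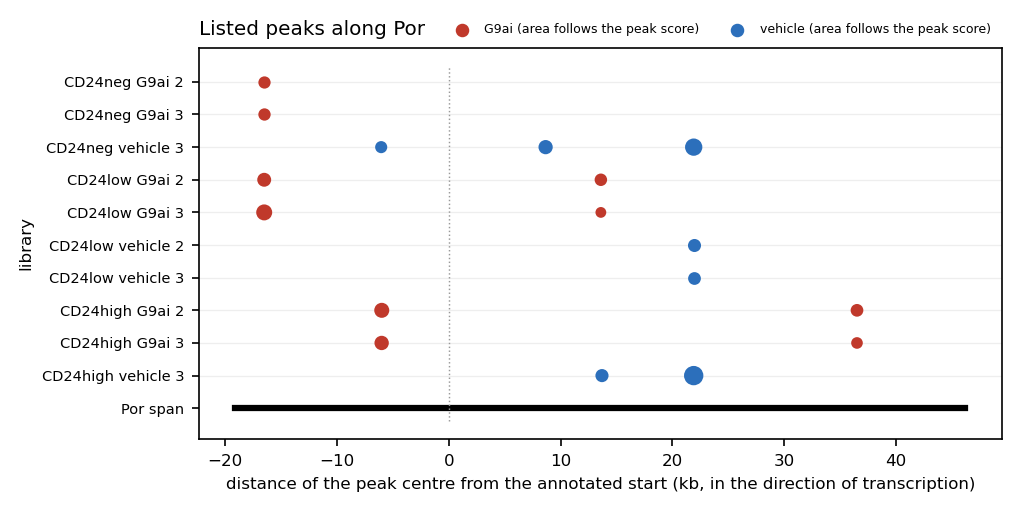
Listed peaks along Por: distance of each peak's centre from the annotated start (x axis, kb) in each of the 10 libraries (y axis), coloured by arm, with the point area following the peak score and the black bar showing the gene span. The site at 21.9 kb appears in all 4 vehicle libraries and in no G9ai library, and the site at -16.5 kb in the G9ai libraries of CD24neg and CD24low.

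Cyp1a1 and Cyp1b1, the classic targets of the aryl hydrocarbon receptor, and Cyp1a2 held no listed region in any library. The same was true of Cyp2e1, the ethanol-inducible P450, and of Cyp2s1, an extrahepatic P450 of airway epithelium.

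Among the Cyp2 genes, Cyp2b, Cyp2a and Cyp2d22 gave most of the regions. Cyp2b10, with the G9ai-only promoter in CD24neg, had a vehicle-only region in CD24high (chr7:25896738-25897007, score 141) at -651 bp of its start. Cyp2b19, an arachidonic acid epoxygenase known from skin, was listed at 1 site (chr7:26767184-26767354) in all 3 populations. It had 74 in CD24neg vehicle, 73 and 55 in CD24low G9ai and 161 in CD24high vehicle, so CD24low went opposite to the other populations. Cyp2a5, a coumarin and nicotine hydroxylase, had vehicle-only regions in CD24high with scores of 123 and 236, the second in the highest 5% of its list.

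Cyp2d22, the sole Cyp2d gene with a region of 8, held a pair of neighbouring sites with calls opposite to each other. Each of them changed arm between CD24low and CD24high. The first (chr15:82379753-82380058) had 58 and 68 in CD24low G9ai and 137 in CD24high vehicle. The second (chr15:82380330-82380431), just outside the gene, had 114 and 80 in CD24low vehicle and 113 and 148 in CD24high G9ai. Cyp2w1, a P450 known from the developing gut, was vehicle-only at the same site in CD24neg (93) and CD24high (82). Cyp2b9 (109), Cyp2g1 (74), an olfactory P450, and Cyp2t4 (97) were vehicle-only in CD24high. Cyp3a13 was vehicle-only in CD24neg too, at another site (162), within the highest 10% of that list.

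In the Cyp4 family every region but that of Cyp4v3 lay in a Cyp4f gene. An arm-only region was held by 7 of 9 Cyp4f genes and by 0 of 8 Cyp4a genes. Over the whole family it was 8 of 19 (42.1%), beside a length-weighted 45.2% of all genes. No such share was taken for Cyp4f alone, a subfamily singled out after its counts were seen. Cyp4f enzymes hydroxylate fatty acids and leukotrienes at the end of the chain. Cyp4f17 ranked highest of them within its lists, at mean percentile 98.2, with 249 and 148 in the G9ai libraries of CD24low and no listed peak under vehicle (chr17:32506430-32506588). Its neighbour Cyp4f16 had 89 and 76 in the same libraries. Cyp4f15 had 117 and 159 in the G9ai libraries of CD24neg.

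Cyp4f39 held 3 regions at 2 sites. Beside the G9ai-only promoter of CD24low, a site 1292 bp downstream of the start was G9ai-only in CD24neg (94 and 49) and vehicle-only in CD24low (69 and 76). Cyp4f14 (90), Cyp4f18 (109), both leukotriene B4 hydroxylases, and Cyp4v3 (92) were vehicle-only in CD24neg, and Cyp4f37 (101) in CD24high. Cyp4f40 was listed in all 3 CD24high libraries (108, 70 and 153).

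The aldehyde dehydrogenase genes were split between the arms. Aldh2, the mitochondrial enzyme that clears acetaldehyde, was G9ai-only in CD24low (211 and 70) and, at another site, in CD24high (63 and 101), and was never listed under vehicle. Aldh3a1, which oxidizes aldehydes of lipid peroxidation, was G9ai-only in CD24low (112 and 49), in the flank of the gene. Aldh3b1 was G9ai-only in CD24high (103 and 128) and Aldh3b2 in CD24low (70 and 51).

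Aldh3a2, the fatty aldehyde dehydrogenase, had 49 and 69 in CD24low vehicle and, at a site 284 bp from the start, 106 and 126 in CD24high G9ai. Aldh1l1, the cytosolic 10-formyltetrahydrofolate dehydrogenase, held 6 regions. In CD24neg it had 3 vehicle-only regions (98, 99 and 80) and a G9ai-only one (92 and 104) at chr6:90575344-90575672, where CD24high was vehicle-only (76). Aldh5a1, the succinic semialdehyde dehydrogenase, was G9ai-only in CD24low (58 and 87) at chr13:24915199-24915378. It was vehicle-only in CD24high (180) at chr13:24914846-24915204. These Aldh5a1 regions overlap only at their edges and were counted as 1 site.

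Aldh18a1, an enzyme of proline synthesis, was vehicle-only with a score of 305 in CD24high (percentile 98.4 of its list) and, at another site, of 242 in CD24neg (percentile 98.6). Aldh4a1, an enzyme of proline breakdown, was G9ai-only in CD24low (86 and 45) and vehicle-only in CD24high (52), at neighbouring regions that did not overlap. Aldh1a2, which makes retinoic acid, was vehicle-only in CD24neg (127). Aldh1a3, its relative, held no listed region.

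The glutathione S-transferase genes were split between the arms in the same direction as all genes. In CD24neg 0 of 23 were G9ai-only and 4 (17.4%) vehicle-only, beside 10.6% and 18.9% of all genes. In CD24low 4 (17.4%) were G9ai-only and 1 (4.35%) vehicle-only, beside 15.9% and 7.44%. In CD24high 2 (8.7%) were G9ai-only and 8 (34.8%) vehicle-only, beside 8.01% and 25.0%. Gsta3 was vehicle-only at a site inside the gene in CD24neg (124) and CD24high (156), and Gsta4, which conjugates hydroxynonenal, was so in CD24neg (86) and CD24high (72). Gstt2 had 89 in CD24neg vehicle and, at the same site (chr10:75835537-75835712), 76 and 123 in CD24high G9ai, beside a vehicle-only region there of 232.

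Of the Gstm genes, which conjugate epoxides and quinones, Gstm1 was vehicle-only (178) and Gstm3 G9ai-only (159 and 77) in CD24high, and Gstm6 vehicle-only in CD24neg (132). Gsto1, an omega-class enzyme that reduces dehydroascorbate, had vehicle-only regions of 141 and 159 in CD24high, the first 608 bp from its start. Gsto2 was G9ai-only in CD24low with low scores (53 and 43). Gstcd was G9ai-only in CD24low (78 and 96) and vehicle-only in CD24high (198), at different sites. Gstz1, which isomerizes maleylacetoacetate in tyrosine breakdown, held regions of either direction in CD24low: vehicle-only at 72 and 78 and at 56 and 151, and G9ai-only at 72 and 46. Gstp1, the main pi-class enzyme, held no listed region.

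**Figure D4:**
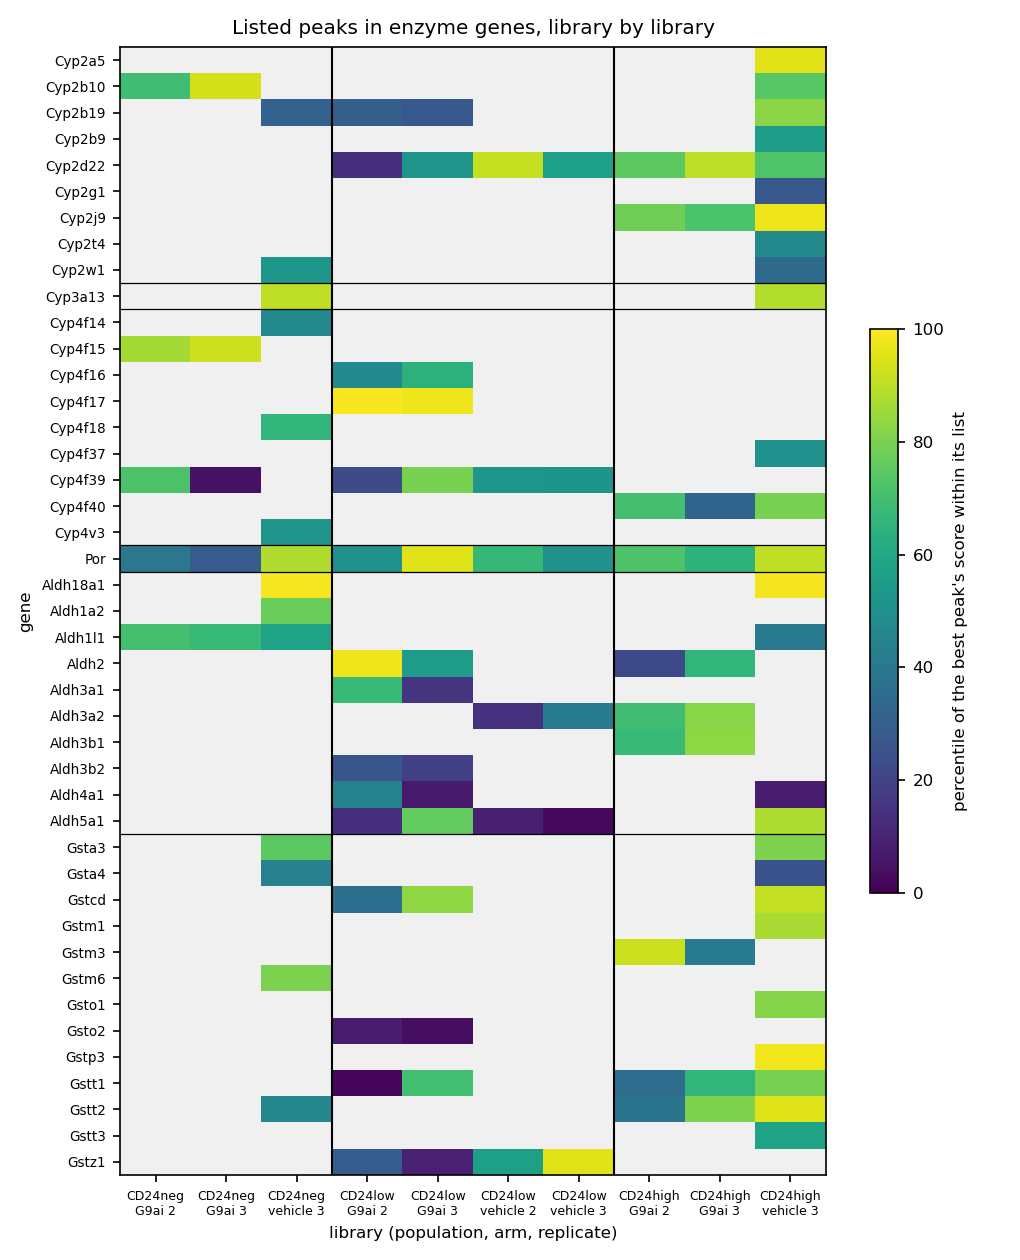
Enzyme genes with a listed peak (rows, ordered by family) in each of the 10 libraries (columns, grouped by population): colour gives the percentile of the gene's best peak score within its list (%), and grey means that no peak was listed. The G9ai and vehicle columns of a population are filled in different rows for most genes, Por is filled in all 10 columns, and Cyp4f17 in CD24low and Aldh18a1 in CD24neg and CD24high are near the top of their lists.

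Sites listed in several populations changed direction often, in enzyme genes and in all genes. Of 69 enzyme gene sites with an arm-only call, 14 (20.3%) had one in 2 or 3 populations, beside 14.6% over all genes. At 9 of these 14 sites (64.3%) the direction was opposite between populations, beside 1567 of 3136 sites (50%) over all genes. Between CD24low and CD24high the direction was opposite at 5 of 6 enzyme gene sites, beside 60% over all genes. Between CD24neg and CD24high it was opposite at 3 of 8, beside 36.4%, and between CD24neg and CD24low at 2 of 4, beside 52.5%. The sites with opposite calls lay in Por, Cyp2d22, Cyp2b19, Cyp4f39, Aldh1l1, Aldh5a1 and Gstt2. At the Aldh5a1 site the regions of the populations overlap only at their edges. The difference between populations was not tested, since 1 vehicle library was listed in CD24neg and in CD24high.

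**Figure D5:**
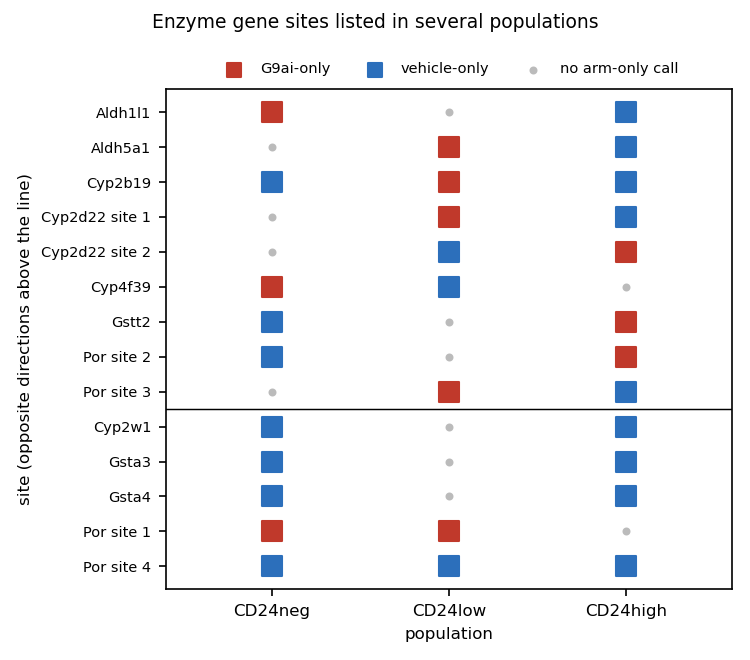
Arm of each enzyme gene site (rows) that had an arm-only call in more than 1 population (columns): red squares are G9ai-only, blue squares vehicle-only and grey dots no arm-only call. The 9 sites above the line have opposite calls between populations, and the 5 below it keep 1 direction, with Por site 4 (21.9 kb from the start) vehicle-only in all 3.

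Of 5 other gene lists of the pathway and of P450 genes, 4 had a larger share of genes with a region than the enzyme genes' 33.6%, and they also hold longer genes. Of 22 regulator genes 14 (63.6%) had an arm-only region in at least 1 population, where genes of those lengths had one in 51.4% of cases. By population, 3 were G9ai-only and 7 vehicle-only in CD24neg, 4 and 1 in CD24low, and 3 and 12 in CD24high. Ahr, the aryl hydrocarbon receptor (72), Nfe2l2, the regulator of the antioxidant response (88), and Tiparp, a target and repressor of Ahr (455, over its start), were vehicle-only in CD24high. Nr1i2, the pregnane X receptor, had 1 site that was G9ai-only in CD24neg (62 and 154) and vehicle-only in CD24high (152).

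Of 32 other phase I enzymes and P450 partners, 21 (65.6%) had a region, beside a length-weighted 50%, with 2 G9ai-only and 11 vehicle-only in CD24neg, 7 and 2 in CD24low, and 4 and 12 in CD24high. Fmo2, the flavin monooxygenase of the lung, was vehicle-only in CD24neg, with 161 and, over its start, 112. Of 28 other phase II enzymes, 20 (71.4%) had one, beside 46.7%, with 3 and 7 in CD24neg, 10 and 4 in CD24low, and 5 and 11 in CD24high. Of 18 transporters, 16 (88.9%) had one, beside 64.5%, with 5 and 8, 5 and 5, and 1 and 9. Of the 19 other P450 genes, those of steroid, bile acid and vitamin metabolism, 6 (31.6%) had one, beside 43.2%. In every population the regulators, the phase I list and the phase II list had more genes in the same arm as the enzyme genes, which is also the arm with more listed regions.

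The sort could be checked only in part, since the lists leave out what both arms share. Epcam, Ly6a (Sca-1) and Cd24a held no arm-only region. Pecam1 (CD31) held one in CD24neg and CD24high vehicle and in CD24low G9ai, and Ptprc (CD45) in CD24neg vehicle. Of 6 endothelial, 8 leukocyte, 6 mesenchymal and 5 basal markers, 5, 3, 4 and 2 held an arm-only region in some population. These counts are 83.3%, 37.5%, 66.7% and 40% of the lists. The length-weighted shares of all genes were 52.4%, 36.9%, 47.3% and 42.4%, so the leukocyte and basal lists were near them. The part of other cells in the enzyme gene regions was not tested.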

How the data were processed

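FastQC, Bowtie2 and MACS2 were used on build mm10, per the submitters' processing notes. The sources used here state no versions, settings, duplicate handling or transposase shift. Each deposited file is a peak list with a score per peak, called per library by the authors; the sources state neither the score's scale nor how the arm-specific lists were made. No reads or depths come with the lists.

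Repeated lines were dropped, peaks overlapping by at least 1 bp were merged within a population, and regions were linked to RefSeq gene spans (GRCm38.p6) plus 1000 bp. The gene table has no exons, so exonic and intronic positions were not used here. Starts came from a RefSeq promoter table that matched 100 of the 122 genes (117 windows). Length weighting used deciles of gene span over all 21887 genes. The genes, lists and named-gene rule were chosen with earlier results of these data known. The rule names 10 fixed genes, up to 8 genes per population and arm by mean best score, and all genes with regions of either direction within a population or in 2 or more populations. The linking was tested on simulated data. Alternatives were other windows, score limits, list lengths, overlaps, library requirements and left-out replicates. Python 3.11.15 and pandas 2.3.3 were used, with matplotlib 3.10.9 for plots.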

Additional observations from a re-analysis of the deposited data

Results flagged for a closer look

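At 9 sites in 7 enzyme genes all listed libraries of 1 population lay in one arm and all listed libraries of another population in the opposite arm. The difference was not tested at any of them, and CD24neg and CD24high each rest on 1 vehicle library. Mean peak scores, which rank peaks within a list and are not compared between lists, were as follows.

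The Aldh1l1 site had 98 in CD24neg under G9ai and 76 in CD24high under vehicle. The Aldh5a1 site had 72.5 in CD24low under G9ai and 180 in CD24high under vehicle, in regions that overlap only at their edges. The Cyp2b19 site had 74 in CD24neg and 161 in CD24high under vehicle, but 64 in CD24low under G9ai. The first Cyp2d22 site had 63 in CD24low under G9ai and 137 in CD24high under vehicle, and the second had 97 in CD24low under vehicle and 130.5 in CD24high under G9ai. The Cyp4f39 site had 71.5 in CD24neg under G9ai and 72.5 in CD24low under vehicle. The Gstt2 site had 89 in CD24neg under vehicle and 99.5 in CD24high under G9ai. The Por site near -6 kb had 66 in CD24neg under vehicle and 104.5 in CD24high under G9ai, and the Por site near 13.6 kb had 60.5 in CD24low under G9ai and 80 in CD24high under vehicle. Over all genes 50% of recurring sites had opposite calls.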

How the results depend on the processing

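Of 94 alternative values of the 7 counts of enzyme genes, 70 stayed within 1.5 times the reported count and 24 did not. Leaving out a replicate changed none of the counts, which the lists fix by construction, so this says nothing about stability. In the order CD24neg G9ai and vehicle, CD24low G9ai and vehicle, CD24high G9ai and vehicle (5, 14, 15, 6, 7 and 23 as reported, 41 over all), windows of 1 kb around either gene end gave 2, 4, 6, 2, 3 and 12, and 25 over all. Promoter windows gave 1, 0, 2, 0, 0 and 4, and 7 over all. The higher-scoring 50% of peaks gave 3 in CD24neg G9ai, 3 in CD24low G9ai and 4 in CD24high G9ai. Lists of equal length gave 3 and 6 in CD24neg, 1 in CD24low G9ai, 12 in CD24high vehicle and 27 over all. Windows with 10 kb on either side gave 11 in CD24low vehicle and 12 in CD24high G9ai. Smaller windows and shorter lists take in fewer peaks by construction. Shortening a list by score can also drop the peak of 1 arm at a site listed in both, which then counts as arm-only.

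Under the 4 settings that use fewer peaks or smaller windows, the share of enzyme genes was not below that of all genes in 6 of 24 combinations of population, arm and setting. These were CD24low vehicle (4 genes) and CD24high G9ai (4) with the higher-scoring 50%, CD24high vehicle with gene-end windows (12) and promoter windows (4), and CD24high G9ai (9) and vehicle (12) with lists of equal length. G9ai-only minus vehicle-only regions changed sign with lists of equal length for Aldh1l1 in CD24neg (1, reported -2) and for Por in CD24low (-1, reported 1). No paired analysis was possible because no result comes from a test and the arms compared are different mice. Read depth is unknown, so sites just under the authors' threshold cannot be told from closed ones.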
